A study of Mus musculus with 12 samples.

Results

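Glutamate receptors and the scaffold proteins that hold them at excitatory synapses were followed in the dorsal raphe (DR) of mice carrying 1 or 2 floxed Stat3 alleles and a Cre active in serotonergic cells. The set holds 37 of the 24421 genes in the deposited counts, chosen by symbol, with earlier results of these data known. It comprises 23 receptor genes, namely 4 AMPA, 5 kainate, 7 NMDA and 1 delta receptor subunit and 6 metabotropic (mGlu) receptors. The other 14 genes are scaffolds of the MAGUK (Dlg), Shank, Homer and Dlgap families. RNA was sequenced from a square of DR tissue taken directly below the aqueduct, with 1 library per animal, from 4 controls (2 females, 2 males) and 8 STAT3 KO mice (4 females, 4 males).

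Controls were Sert Cre/+ with Stat3 fl/+ and STAT3 KO mice were Sert Cre/+ with Stat3 fl/fl, as littermates on a C57BL/6 x 129 background. Both groups therefore carried Cre at the Sert (Slc6a4) locus and at least 1 floxed Stat3 allele, so the comparison is of 1 against 2 floxed alleles. The labels give no age, and the methods of the study describe mice that were adult at the start of experiments. Cre was driven from the Sert locus, so that the deletion was limited to Sert-expressing cells, whereas each library holds RNA of every cell in the tissue. Each animal is named by its genotype and number.

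Depth was 24379588 to 29645210 counts on genes per library, and 15453 genes, with 37 of the 37 members among them, passed the filter on low counts. Levels are given in CPM, counts scaled to library size with TMM, edgeR's correction for library composition. Stat3, the targeted gene, was read at 64.7, 66.2, 67.9 and 67.7 CPM in controls and at 62.7 to 70.1 CPM in STAT3 KO mice (median 66.4). These values sum all exons and all cell types, so the exons removed by Cre were not resolved. The serotonergic markers were present in each library, with a summed level of 5 genes of 1000 to 1213 CPM in controls and 827 to 1310 CPM in STAT3 KO mice. The labels name no batch.

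Glutamate is the main excitatory transmitter of the brain. AMPA receptors (Gria genes) carry most of the fast current and NMDA receptors (Grin genes) open only when depolarisation relieves their magnesium block, which makes them detectors of coincident activity. Kainate receptors (Grik genes) modulate transmission on both sides of the synapse, and mGlu receptors (Grm genes) act through G proteins. Under the postsynaptic membrane, MAGUK proteins such as PSD-95 (Dlg4) bind receptors, Dlgap proteins link MAGUKs to Shanks, and Homers link Shanks to group I mGlu receptors. Serotonergic neurons of the DR receive glutamatergic input from the forebrain and the midbrain.

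Levels of different genes were compared per kilobase of merged exons, as CPM per kilobase over the 12 libraries. Among AMPA subunits, Gria1 (54.4 ± 6.53, SD, n = 12) and Gria4 (43.5 ± 2.60) were highest per length, before Gria2 (22.7 ± 1.21), the subunit that makes the channel impermeable to calcium, and Gria3 (13.4 ± 0.98). Gria1 was above Gria4 in 11 of 12 libraries, and their ranges overlapped. The ranges of Gria4, Gria2 and Gria3 did not overlap. The order of the AMPA subunits rests on the length used, since per kilobase of merged coding exons Gria2 came first (126 ± 6.72) and Gria1 was at 116 ± 13.9.

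NMDA receptor RNA was dominated by the obligatory subunit Grin1 (44.5 ± 1.87 CPM per kilobase), which took 65.6% ± 1.94 (SD, n = 4) of the class sum in controls and 66.1% ± 1.32 (SD, n = 8) in STAT3 KO mice. Of the GluN2 subunits, which set the kinetics and pharmacology of the receptor, Grin2d (7.52 ± 0.934) and Grin2c (6.87 ± 1.25) were highest, and their ranges overlapped with each other and with that of Grin3a (6.74 ± 0.411). Grin2b (0.378 ± 0.0897) and Grin2a (0.251 ± 0.0610), the GluN2 subunits that prevail in the forebrain, were the lowest members of the class per merged exons. With coding length Grin2d (12.6 ± 1.56) and Grin2c (9.31 ± 1.69) were still above Grin2b (2.11 ± 0.501) and Grin2a (1.03 ± 0.249), while Grin3a (24.3 ± 1.48) came before them and Grin3b (1.35 ± 0.298) lay below Grin2b in 11 of 12 libraries.

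Grik5, a high-affinity kainate subunit that forms channels only together with others, led its class at 22.7 ± 2.03 CPM per kilobase, which was 53.0% ± 2.01 of the class sum in controls and 52.4% ± 2.15 in STAT3 KO mice. Grik3 (7.23 ± 0.714), Grik4 (5.81 ± 0.364), Grik2 (4.05 ± 0.284) and Grik1 (3.32 ± 0.183) followed, and only the ranges of the last pair overlapped. Per coding length Grik2 (18.2 ± 1.28) lay above Grik4 (12.1 ± 0.756) in 12 of 12 libraries. Grid1, a delta receptor that binds cerebellins at the synapse, stood at 9.56 ± 0.660. Of the mGlu receptors, the group II receptor Grm3 (14.4 ± 1.40), also known from astrocytes, and the group I receptor Grm5 (12 ± 1.12), which excites through Gq, were the highest per merged exons. Per coding length Grm5 led (34 ± 3.17), before Grm7 (17.9 ± 1.47), Grm3 (16.6 ± 1.61) and Grm4 (16.6 ± 2.89). Grm2 (2.31 ± 0.349) lay below Grm3 in 12 of 12 libraries. In group III, Grm7 (8.77 ± 0.718) and Grm4 (7.76 ± 1.35) overlapped, and both lay above Grm8 (2.71 ± 0.234).

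Among the scaffolds, the 4 MAGUK genes ran from Dlg1 (14.1 ± 0.631 CPM per kilobase) to Dlg4 (20.4 ± 1.68), and Dlg2 (16 ± 1.13) and Dlg3 (15.8 ± 0.971) each were higher in 6 of 12 libraries. Shank1 (17.5 ± 1.83) was above Shank3 (8.33 ± 0.939) and Shank2 (3.65 ± 0.573) without overlap of ranges. Dlgap3 (20.7 ± 2.31) and Dlgap4 (15.2 ± 1.19) led the Dlgap genes, before Dlgap1 (6.54 ± 0.853) and Dlgap2 (1.84 ± 0.358). Homer3 (5.44 ± 3.03) had the widest spread of the Homer genes, and Homer2 (2.60 ± 0.262) and Homer1 (2.32 ± 0.401) overlapped. With coding length the first place went to Homer2 and Dlgap4 in these families, whereas Dlg4 and Shank1 kept it, and the MAGUK genes were further apart, from Dlg3 (33.1 ± 2.04) to Dlg4 (107 ± 8.79).

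**Figure D1:**
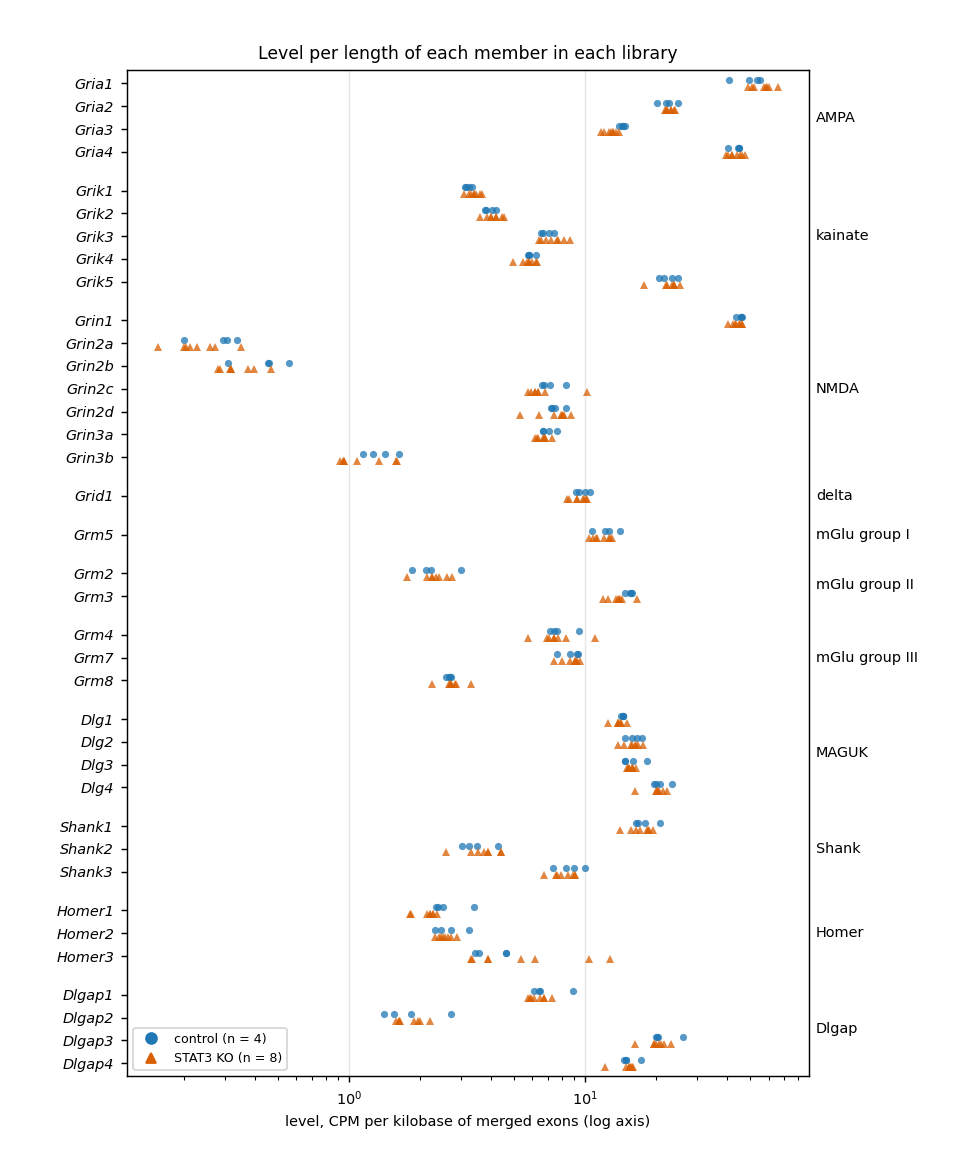
Level of each of the 37 genes in each library, in CPM per kilobase of merged exons on a log axis, by class. Circles are the 4 controls and triangles the 8 STAT3 KO mice. Grin1 lies far above the other NMDA subunits, Grin2a and Grin2b are the lowest of all, and the points of the genotypes overlap for each gene.

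No member passed the test for genotype. With edgeR's quasi-likelihood test 0 of 37 members had an adjusted p below 0.05, as did 0% of all genes tested, and the lowest adjusted p among members was 0.615. DESeq2 gave 0 of 37, with a lowest adjusted p of 0.290, and 6 of all 20026 genes it tested. With no adjustment 5 members had p below 0.05 (13.5%, against 7.66% of the 15453 genes tested), 1 higher and 4 lower in STAT3 KO mice (3.61% and 4.05% of all genes). The values of controls and STAT3 KO mice did not overlap in 0 members, against 0.447% of all genes. The log2 fold changes were below 0 in 26 members and above 0 in 11, with a median of -0.045, while 49.4% of all genes lay above 0. With limma-voom and sample quality weights 20 were below and 17 above 0, with a median of -0.0084. The standard errors were 0.041 to 0.34 with a median of 0.074, so that for the typical member only changes well above this size were detectable.

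Gria3 (ENSMUSG00000001986, chromosome X of GRCm38, 41400854 to 41678601), an AMPA subunit, had the smallest unadjusted p. It was read at 144, 141, 146 and 137 CPM in controls 13, 4, 3 and 11, and at 116 to 138 CPM in STAT3 KO mice (median 128). The 8 STAT3 KO mice all lay below the control mean, and only KO 8 (138 CPM) reached the range of controls. The log2 fold change was -0.16 (95% CI -0.26 to -0.065, edgeR unadjusted p = 0.00262, adjusted p = 0.615). The exact permutation p over the 495 splits of the animals was 0.0101, and the edgeR p stayed between 0.000634 and 0.0136 with any 1 animal left out.

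Gria1 (ENSMUSG00000020524, chromosome 11, 57011387 to 57330244), the subunit known for activity-dependent delivery to synapses, was the 1 member on the higher side. Its level was 301, 332, 245 and 326 CPM in controls 13, 4, 3 and 11 and 298 to 399 CPM in STAT3 KO mice (median 350), with 7 of 8 STAT3 KO mice above the control mean. The groups overlapped widely, since only control 3 lay below each of the STAT3 KO mice. The log2 fold change was 0.19 (95% CI 0.0078 to 0.37, edgeR unadjusted p = 0.0419, adjusted p = 0.646), and the exact permutation p was 0.0788. With any 1 animal left out the log2 fold change was 0.10 (without control 3) to 0.24, and edgeR's unadjusted p was below 0.05 in 5 of the 12 fits. Without KO 10 and KO 16 it was 0.14 (edgeR unadjusted p = 0.115). Gria2 (0.023, SE 0.049) and Gria4 (-0.0058, SE 0.053) differed by less than their errors.

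The 5 kainate genes had 0 members with an unadjusted p below 0.05, and 4 of 5 log2 fold changes lay above 0. Grik1 was read at 21.0, 21.1, 21.7 and 22.3 CPM in controls 13, 4, 3 and 11 and at 20.7 to 24.6 CPM in STAT3 KO mice (median 22.8). Its log2 fold change was 0.082 (SE 0.052, edgeR unadjusted p = 0.134), with 7 of 8 STAT3 KO mice above the control mean. Grik5 was at 106 to 128 CPM in controls and 92.3 to 130 CPM in STAT3 KO mice, with a log2 fold change of 0.016 (SE 0.074).

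All 7 NMDA genes had log2 fold changes below 0, from -0.37 to -0.0084 with a median of -0.10. They lay below 0 with control 4 left out as well. Grin2d, the nearest to 0, was above 0 in 3 of the 12 fits with 1 animal left out (up to 0.051) and at 0.010 without KO 10 and KO 16. Grin2b (ENSMUSG00000030209, chromosome 6, 135713233 to 136173511), the GluN2 subunit of early development, had the largest difference of the class. It was read at 7.67, 13.9, 11.4 and 11.3 CPM in controls 13, 4, 3 and 11 and at 6.96 to 11.6 CPM in STAT3 KO mice (median 7.89). Control 4 was highest, and control 13 lay among the low STAT3 KO mice. The log2 fold change was -0.37 (95% CI -0.70 to -0.052, edgeR unadjusted p = 0.0256, adjusted p = 0.615), and without control 4 it was -0.24 (unadjusted p = 0.149).

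Grin2a, the GluN2 subunit of mature forebrain synapses, was at 3.59, 5.49, 6.05 and 5.24 CPM in controls 13, 4, 3 and 11 and at 2.78 to 6.27 CPM in STAT3 KO mice (median 3.95). Its log2 fold change of -0.27 had a standard error of 0.18 (edgeR unadjusted p = 0.151), and it was -0.18 without control 3 and -0.40 without control 13. Grin1 differed little between animals, with 422 to 451 CPM in controls and 394 to 450 CPM in STAT3 KO mice (log2 fold change -0.045, SE 0.041). Grin3a, a subunit that lowers calcium entry, was at 81.6 to 93.2 CPM in controls and at 75.2 to 88.9 CPM in STAT3 KO mice (-0.080, SE 0.049, unadjusted p = 0.124 from edgeR), and its log2 fold change was -0.033 without control 11.

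Grm3 (ENSMUSG00000003974, chromosome 5, 9485541 to 9725170), an inhibitory mGlu receptor coupled to Gi, was read at 44.9, 48.3, 47.5 and 48.0 CPM in controls 13, 4, 3 and 11. It was read at 36.4 to 50.9 CPM in STAT3 KO mice (median 42.3), of which 7 of 8 lay below the control mean and KO 8 was the highest of all animals. The log2 fold change was -0.16 (95% CI -0.30 to -0.012, edgeR unadjusted p = 0.0356, adjusted p = 0.633), with an exact permutation p of 0.0566. With any 1 animal left out the log2 fold change was -0.20 to -0.13, and edgeR's unadjusted p was below 0.05 in 6 of the 12 fits. The other mGlu receptors had unadjusted p of 0.290 or more in edgeR, with log2 fold changes of -0.078 for Grm5, 0.0056 for Grm2, -0.036 for Grm4, 0.010 for Grm7 and 0.046 for Grm8. Without control 4 the values of Grm5, Grm2 and Grm4 were -0.0087, 0.16 and -0.082, and with any 1 animal left out all but those of Grm5 and Grm8 took either sign. Grm5 was read at 110 to 145 CPM in controls and at 107 to 133 CPM in STAT3 KO mice. Grid1 was at 54.5 to 62.9 CPM in controls and at 50.1 to 60.7 CPM in STAT3 KO mice (-0.051, SE 0.059).

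**Figure D2:**
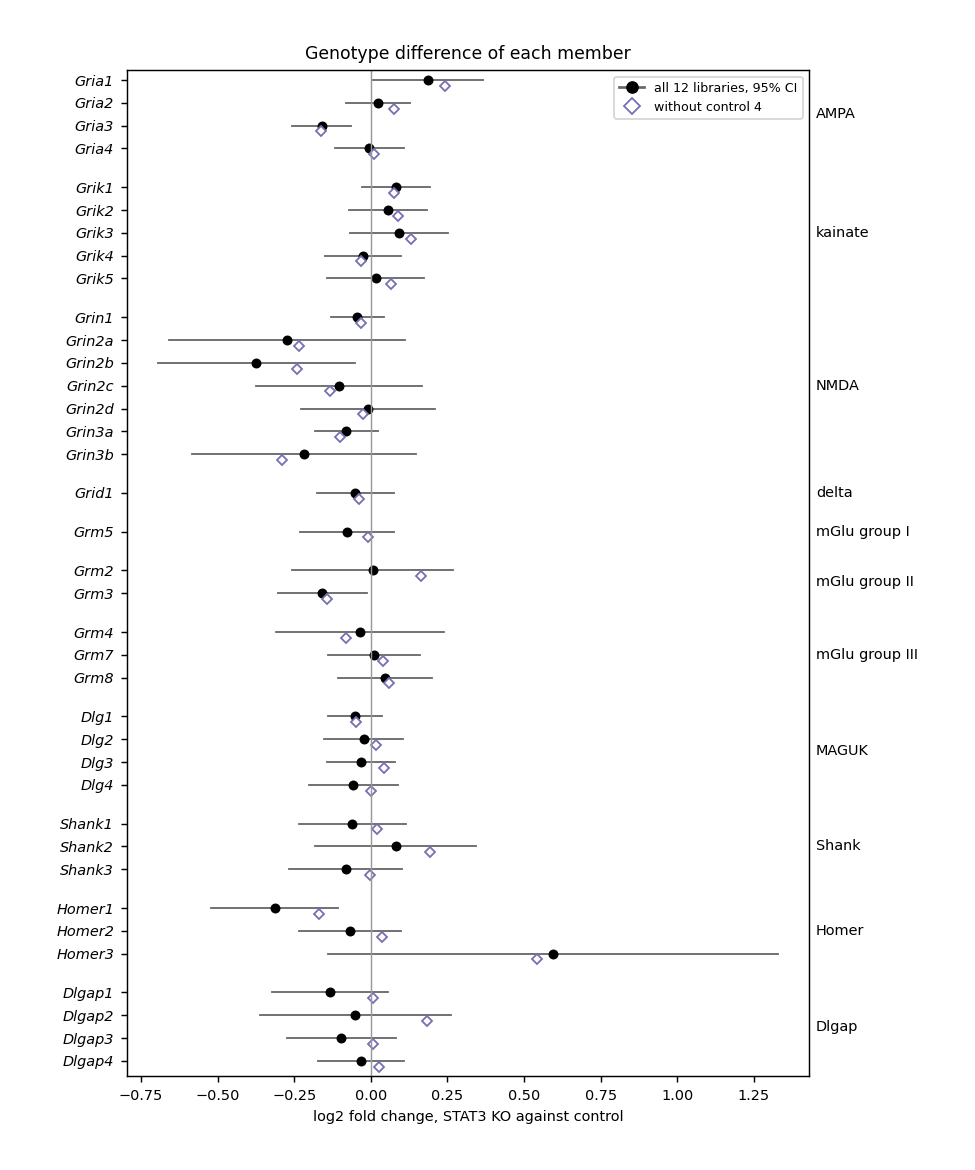
Log2 fold change of each gene, STAT3 KO against control, by class. Black points and bars are the estimate and 95% confidence interval of edgeR's quasi-likelihood fit to 12 libraries, and open diamonds the estimate without control 4. The bars of Gria1, Gria3, Grin2b, Grm3 and Homer1 leave out 0, and the diamonds of the 4 Dlgap genes lie above 0 while their points lie below.

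Homer1 (ENSMUSG00000007617, chromosome 13, 93299635 to 93405129) encodes long forms that cross-link mGlu receptors to Shank and a short, activity-induced form that uncouples them, which gene counts do not separate. It was read at 28.1, 40.8, 30.1 and 28.5 CPM in controls 13, 4, 3 and 11 and at 21.8 to 28.4 CPM in STAT3 KO mice (median 26.5). The 8 STAT3 KO mice all lay below the control mean, and KO 16, the highest of them, reached just above control 13. The log2 fold change was -0.31 (95% CI -0.52 to -0.11, edgeR unadjusted p = 0.00556, adjusted p = 0.615), and the exact permutation p was 0.00404. Without control 4 the difference was -0.17 (edgeR unadjusted p = 0.0473), the smallest with any 1 animal left out. Gria3 and Homer1 were the 2 members with an exact permutation p below 0.05, against 7.11% of all genes.

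Homer3 (ENSMUSG00000003573, chromosome 8, 70282827 to 70294361), a Homer known from cerebellar Purkinje cells, had the largest log2 fold change of all members and did not pass (0.60, SE 0.34, edgeR unadjusted p = 0.104, adjusted p = 0.740). It was at 15.9, 12.3, 15.9 and 11.8 CPM in controls 13, 4, 3 and 11 and at 11.3 to 43.8 CPM in STAT3 KO mice (median 16). KO 16 (43.8 CPM) and KO 10 (35.8 CPM) stood above the rest, and the other 6 STAT3 KO mice were at 14.9 ± 4.01 CPM (SD, n = 6). With both animals left out the log2 fold change was 0.091 (SE 0.17). The same animals had the highest sums of 7 cerebellar marker genes, 525 CPM in KO 16 and 253 CPM in KO 10, against 36.0 to 129 CPM in controls and 29.4 to 93.7 CPM in the other STAT3 KO mice. Car8 alone made up 207 and 147 CPM of these 2 sums. In KO 10, Gabra6 (11.1 CPM), Cbln3 (24.8 CPM) and Neurod1 (14.1 CPM) lay below control 3 (16.9, 38.4 and 16.7 CPM). Pcp2, Ppp1r17, Car8 and Zic1 lay above control 3 in KO 10. KO 16 was also highest in Grin2c (51.3 CPM, with 29.0 to 34.1 in the other STAT3 KO mice) and Grm4 (66.0 CPM), both known from cerebellar granule cells. Without KO 10 and KO 16 the log2 fold change of Grin2c went from -0.10 to -0.22 (SE 0.069, edgeR unadjusted p = 0.00726, adjusted p = 0.922). That of Grm4 went from -0.036 to -0.17 (SE 0.089). The part of cerebellar tissue in these differences was not tested. In tissue RNA, fewer cells of a type and less RNA per cell cannot be told apart.

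**Figure D3:**
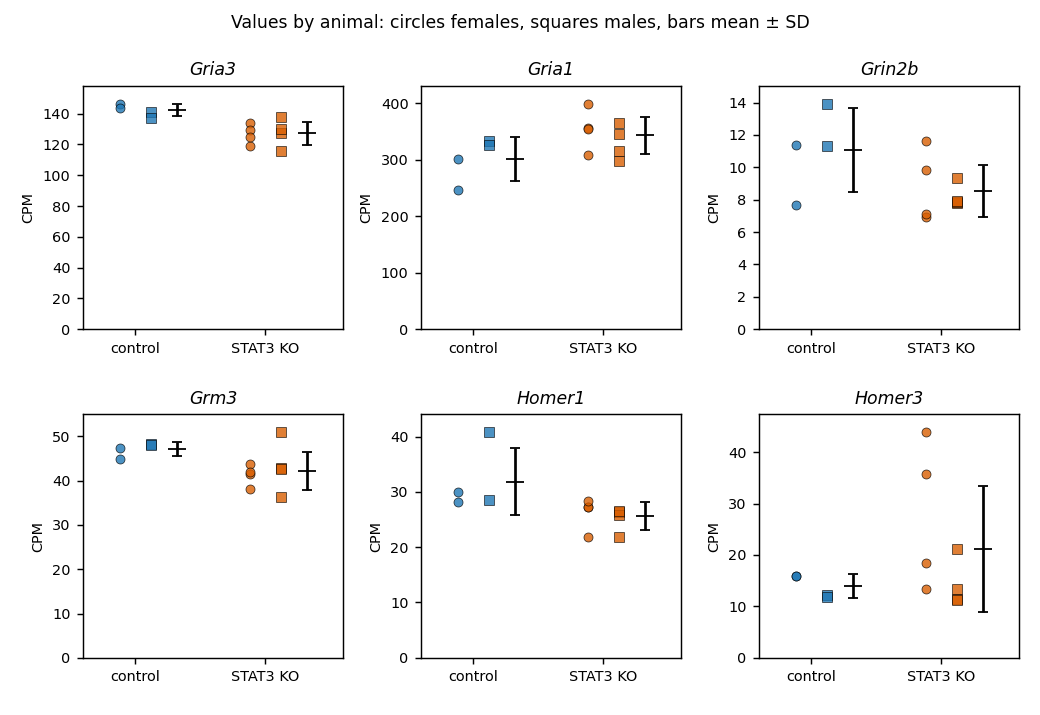
CPM of Gria3, Gria1, Grin2b, Grm3, Homer1 and Homer3 in each animal, with each axis starting at 0. Circles are females, squares males, and bars the mean ± SD of the 4 controls and 8 STAT3 KO mice. The genotypes overlap in each panel, and Homer3 has 2 female STAT3 KO mice at 43.8 and 35.8 CPM far above the others.

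The 4 MAGUK genes had log2 fold changes from -0.057 (Dlg4, SE 0.068) to -0.024 (Dlg2, SE 0.060), and the 3 Shank genes from -0.083 (Shank3, SE 0.087) to 0.082 (Shank2, SE 0.12). Dlg4, the gene of PSD-95, was read at 276, 309, 267 and 261 CPM in controls 13, 4, 3 and 11 and at 216 to 294 CPM in STAT3 KO mice (median 270). Shank1 was read at 173 to 220 CPM in controls and 148 to 204 CPM in STAT3 KO mice (-0.060, SE 0.082). The lowest value of both genes was that of KO 8. All 4 Dlgap genes were below 0, and Dlgap1 was at 109, 159, 114 and 115 CPM in controls 13, 4, 3 and 11 and at 103 to 130 CPM in STAT3 KO mice (-0.13, SE 0.089, edgeR unadjusted p = 0.151). Dlgap3 was at 91.4, 117, 92.1 and 90.4 CPM in the same controls and at 73.5 to 105 CPM in STAT3 KO mice (-0.096, SE 0.083). In both Dlgap genes control 4 alone stood above the other controls.

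Control 4 was the highest of the 12 libraries in 15 of 37 members and in 10 of the 14 scaffolds, against 7.84% of all genes tested. Without it the median log2 fold change of the scaffolds went from -0.055 to 0.019 and that of the 37 members from -0.045 to 0.0073, with 20 above and 17 below 0. The sign changed in 9 members, 8 of them scaffolds, and 3 members had an unadjusted p below 0.05 in edgeR (Gria3, Gria1 and Homer1), against 8.96% of all genes in that fit. The sum of 8 forebrain excitatory marker genes was 421 CPM in control 4, with 52.7 to 75.4 CPM in the other controls and 41.2 to 126 CPM in STAT3 KO mice. Tbr1, a cortical transcription factor, was at 10.4 CPM in control 4 and at 0.144 to 2.02 CPM elsewhere. The part of forebrain tissue in the genotype differences was not tested. The summed level of Slc17a6 and Slc17a8, the vesicular glutamate transporters of midbrain neurons, was 412, 331, 444 and 478 CPM in controls 13, 4, 3 and 11 and 324 to 387 CPM in STAT3 KO mice. The 2 genes differed. Slc17a6 was at 357, 245, 397 and 402 CPM in these controls and at 262 to 308 CPM in STAT3 KO mice, so that control 4 lay below each STAT3 KO mouse. Slc17a8 was at 55.0, 85.6, 47.6 and 75.6 CPM in these controls and at 54.7 to 79.2 CPM in STAT3 KO mice, with control 4 highest. The part of these levels in the lower values of members was not tested.

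KO 8 was the lowest library in 14 of 37 members (18.1% of all genes) and KO 6 in 13 (10.3%). Grin2d (65.0% GC), Grm4 (61.7%) and Grik5 (61.7%) were among the members furthest below their mean in KO 8, as were Shank2 (55.0%) and Dlg4 (46.8%). Grik2 (37.9%) was among those above it. The Spearman correlation of GC content of the longest transcript with the deviation of KO 8 from the mean of 12 libraries was -0.73 across 37 members and -0.43 across 14893 genes, as a description across genes of 1 library. In the other libraries it was -0.48 (control 11) to 0.53 (KO 15) across members, with 0.38 in KO 6. Across all these genes it was -0.19 (control 11) to 0.26 (KO 15). KO 8 and KO 16 had a summed level of 5 choroid plexus genes of 234 and 227 CPM, against 13.4 to 19.4 CPM in the other 10 libraries. Most of it was Ttr, at 213 and 202 CPM against 0.110 to 3.63 CPM. Kl and Kcnj13 were also higher in both than in the other 10 libraries. Otx2 in both, and Folr1 in KO 8, lay within the range of those 10 libraries. The part of these properties in the values of KO 8 was not tested. Without KO 8 the log2 fold changes were above 0 in 15 and below 0 in 22 members.

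**Figure D4:**
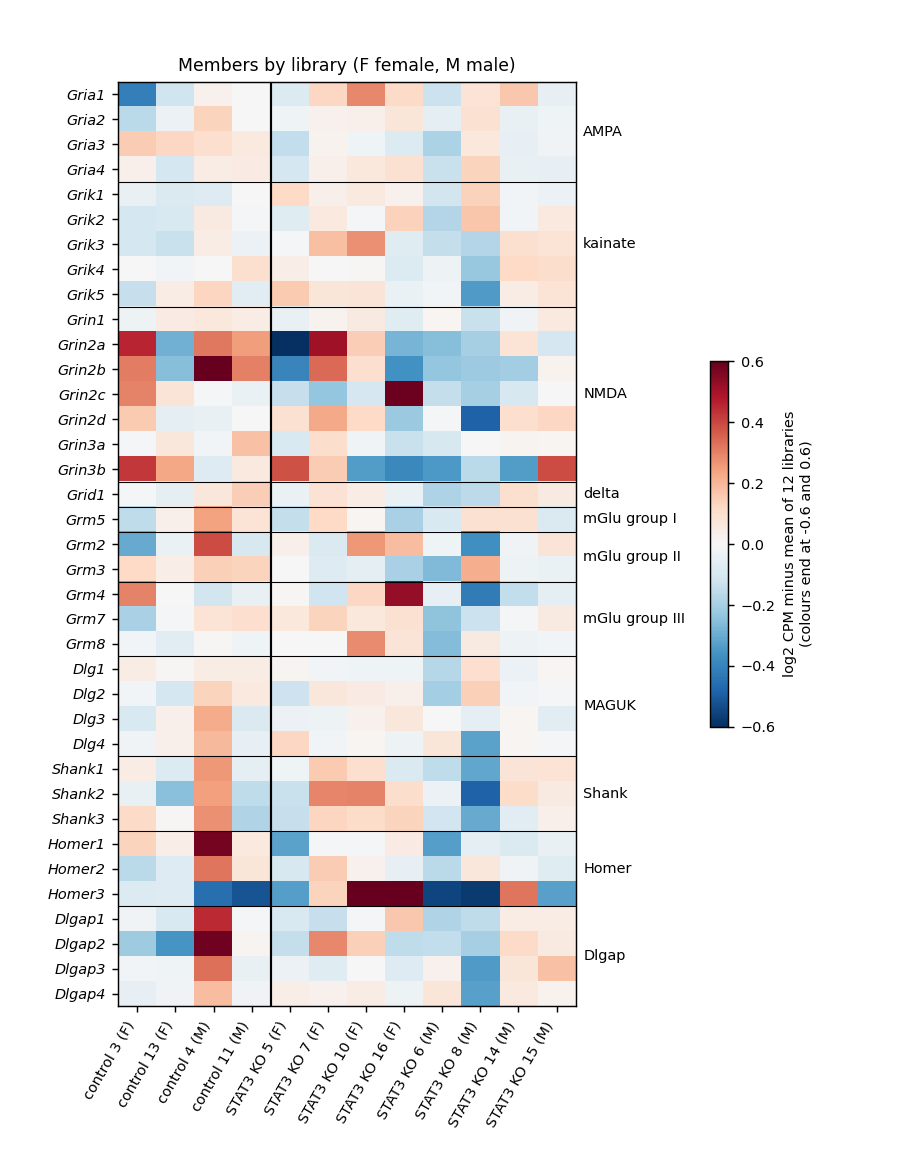
Deviation of each gene's log2 CPM from its mean over 12 libraries, with libraries in columns (F female, M male), controls left of the vertical line, and colours ending at -0.6 and 0.6. Control 4 is red across most scaffolds, KO 8 is blue in Shank and most Dlgap genes, and KO 10 and KO 16 stand out in Homer3.

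The balance of subunits was compared as the log2 ratio of 2 genes within a library, which does not depend on library scaling, with the exact permutation test and adjustment over the 8 ratios. The Homer1/Homer2 ratio was -0.091 ± 0.14 (SD, n = 4) in controls and -0.33 ± 0.11 (SD, n = 8) in STAT3 KO mice, a difference of -0.24. The 8 STAT3 KO mice all lay below the control mean, and the exact permutation p was 0.0101, with an adjusted p of 0.0808, so that the difference missed the threshold. Leaving out 1 animal moved the adjusted exact permutation p between 0.0485 and 0.291, and it was 0.0485 without control 11 or without KO 16. Homer1 and the ratio share their counts, and the ratio is no separate evidence on Homer1.

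The Gria1/Gria2 ratio was -0.22 ± 0.10 in controls and -0.056 ± 0.12 in STAT3 KO mice, 0.17 higher with 8 of 8 STAT3 KO mice above the control mean (exact permutation p = 0.0424, adjusted p = 0.170). The Grin2d/Grin2b ratio was 0.34 higher in STAT3 KO mice (exact permutation p = 0.0768, adjusted p = 0.205), and 0.20 higher without control 4. The other 5 ratios (Gria4/Gria2, Grin2a/Grin2b, Grin2c/Grin2b, Shank1/Shank3 and Dlg2/Dlg4) differed by -0.033 to 0.24, with exact permutation p of 0.394 or more.

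Sex was tested in a model with genotype. In edgeR, 0 of 37 members had an adjusted p below 0.05 (0.0841% of all genes), while 2 members reached p below 0.05 without adjustment (7.2% of all genes), both lower in males (3.37% of all genes, with 3.83% higher). Homer3 was at 23.9 ± 12.7 CPM in females and at 13.6 ± 3.77 CPM in males (SD, n = 6 each), with a log2 difference of -0.79 (SE 0.26, edgeR unadjusted p = 0.00808, adjusted p = 0.595). Grm4 differed by -0.29 (SE 0.10, unadjusted p = 0.0121 in edgeR). KO 10 and KO 16 are both females, and without them these differences were -0.26 (SE 0.17) and -0.16 (SE 0.082). Grm5, with the next smallest p, differed by 0.11 (SE 0.064, edgeR unadjusted p = 0.112), and Grin2c by -0.19 (SE 0.11) or -0.055 without both animals.

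Whether the genotype difference itself differed between sexes was tested with an interaction term. Again 0 of 37 members had an adjusted p below 0.05 in edgeR (0% of all genes), with a lowest adjusted p of 0.898. The interaction was negative, that is, the difference of STAT3 KO from control was lower in males, in 33 of 37 members (50% of all genes were above 0), with a median of -0.18. An unadjusted p below 0.05 was found in 6 members, each negative (3.02% of all genes were negative and 2.47% positive with such a p), namely Gria1, Gria2, Grm2, Grm7, Homer2 and Dlgap2. In females 25 of 37 log2 fold changes were above 0 (49.9% of all genes) with a median of 0.042, and in males 3 of 37 (49.6% of all genes) with a median of -0.11. Within females 4 members had an unadjusted p below 0.05 (10.3% of all genes), with Gria1, Grik3 and Grm7 higher (5.24%) and Gria3 lower (5.05%) in STAT3 KO mice. Within males there were 5 (2.88% of all genes), Grin2b, Homer1, Homer2, Dlgap1 and Dlgap2, all lower (1.83%, with 1.05% higher).

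Grm7, a presynaptic group III receptor, had the smallest interaction p (-0.36, SE 0.11, edgeR unadjusted p = 0.00687, adjusted p = 0.898). In females it was at 51.0 and 44.9 CPM in controls and at 53.7 to 56.4 CPM in STAT3 KO mice, and in males at 54.4 and 55.1 CPM in controls and at 43.6 to 53.4 CPM in STAT3 KO mice. Grm7 was picked by its interaction p, so the opposite order of the genotypes in the 2 sexes is no separate evidence. Dlgap2 had an interaction of -0.70 (SE 0.23, unadjusted p = 0.010 in edgeR). It was at 8.70 and 9.60 CPM in female controls, at 16.7 CPM in control 4 and 11.3 CPM in control 11, the male controls, and at 9.71 to 13.6 CPM in STAT3 KO mice. Homer2 had an interaction of -0.38 (SE 0.13, unadjusted p = 0.0119 in edgeR), with 29.2 and 31.0 CPM in female and 34.3 and 40.8 CPM in male controls.

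Each sex has 2 controls, so that these values rest on single animals. Control 3, a female, was the lowest library in Gria1 (245 CPM), Gria2 and Dlg3, and control 4, a male, the highest in 15. Without control 4 the interaction was negative in 30 members, with 1 unadjusted p below 0.05 (4.37% of all genes in that fit), and males had 10 of 37 log2 fold changes above 0, with a median of -0.057 and 1 member with an unadjusted p below 0.05 in place of 5 (2.88% of all genes in that fit). Without control 3 there were 2 such p values (3.58% of all genes), without control 11 there were 11 (6.14%) and without KO 5 there were 10 (5.46%). Leaving out a control leaves 1 control of its sex, which is then assumed to vary like the other groups.

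**Figure D5:**
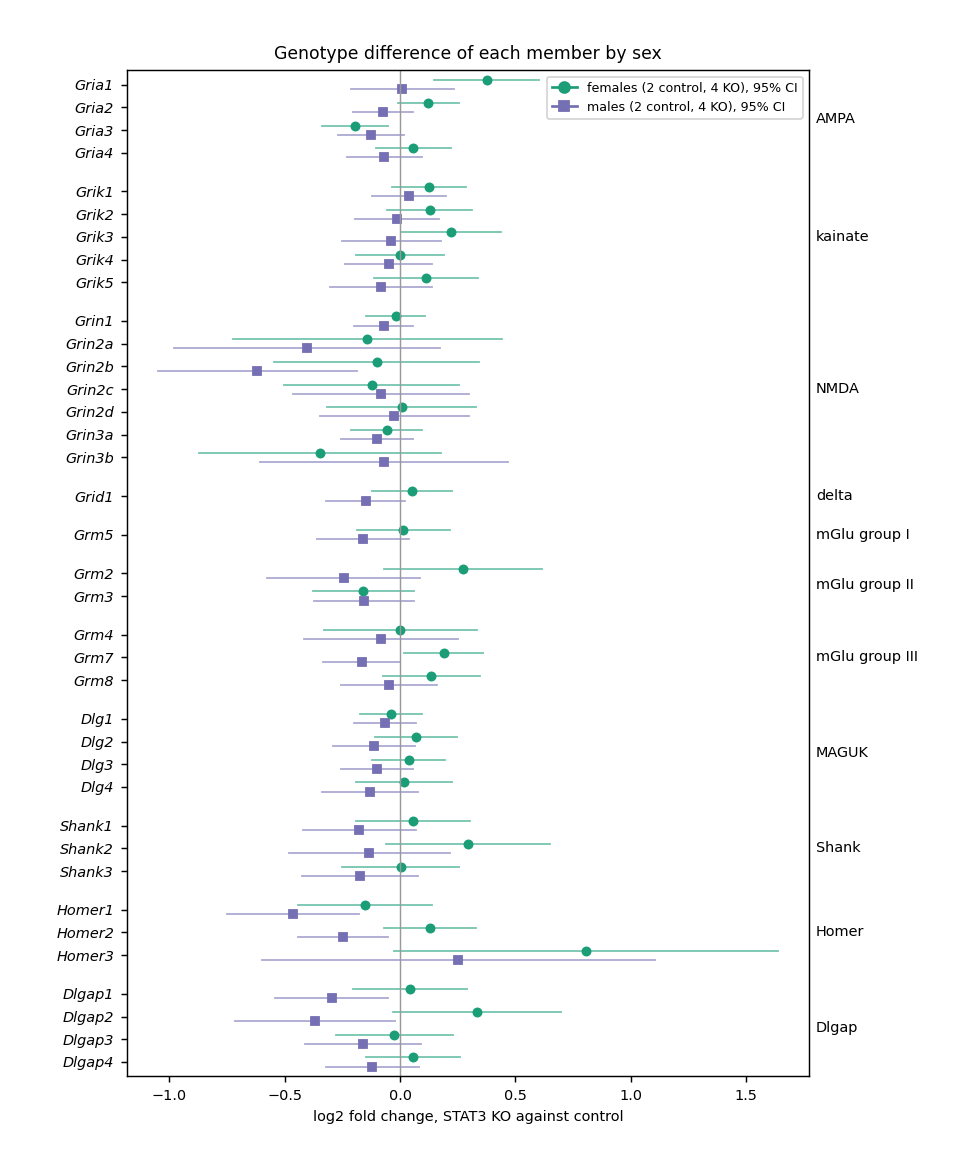
Log2 fold change of each gene, STAT3 KO against control, in females (circles) and males (squares), each with 2 controls and 4 STAT3 KO mice. Bars are 95% confidence intervals of edgeR's fit with genotype, sex and their interaction. Most squares lie left of 0 and of the circle of the same gene, and the bars of the pair overlap for nearly all genes.

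Further genes of the glutamatergic synapse, 43 in number, were tested in the same fit, with 0 of 43 at an adjusted p below 0.05 in edgeR and 4 at an unadjusted p below 0.05 (9.3%, against 7.66% of all genes). Cacng5, an auxiliary subunit of AMPA receptors, was at 23.9, 23.2, 18.8 and 24.0 CPM in controls 13, 4, 3 and 11 and at 23.9 to 31.5 CPM in STAT3 KO mice (median 27.4). Its log2 fold change was 0.30 (SE 0.086, edgeR unadjusted p = 0.00337, adjusted p = 0.615), the 1 accessory gene on the higher side. Nsf, an ATPase that stabilises AMPA receptors at the membrane (-0.12, SE 0.042), Neto2, an auxiliary subunit of kainate receptors (-0.12, SE 0.051), and Lgi1, a secreted organiser of AMPA receptors (-0.11, SE 0.045), were on the lower side. The next smallest p belonged to the postsynaptic proteins Sipa1l1 (-0.18, SE 0.088) and Kalrn (-0.27, SE 0.14), which without control 4 differed by -0.043 and -0.00076. Camk2a, the kinase of forebrain postsynaptic densities, was at 476 CPM in control 4 and at 101 to 190 CPM in the other 11 libraries.

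Of the 12 auxiliary subunits of AMPA receptors, 6 log2 fold changes lay above and 6 below 0, and of the 12 further postsynaptic density genes 2 lay above and 10 below. Without control 4 the latter were 6 and 6. For genotype, an unadjusted p below 0.05 was found in 7 of the 43 genes without control 4 (8.96% of all genes in that fit), and also in 7 without control 3 (5% of all genes). For the interaction with sex, 10 of the 43 had an unadjusted p below 0.05 in edgeR (23.3%, against 5.49% of all genes). All 10 were negative (3.02% of all genes), and 0 of 43 had an adjusted p below 0.05.

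Some members share exon sequence with neighbouring genes in GENCODE vM21. The overlap was 32.1% of the exon bases of Grin3b with Tmem259, 25.4% of those of Homer3 with Ddx49 and 13.5% of those of Grin1 with Grin1os. Since the use of strand in counting is not given in the sources used here, the levels of these 3 genes are less certain than those of the others.

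Promoter sequences of RefSeq (GRCm38.p6), from 250 bases before to 50 after the gene start, could be matched to 25 of the 37 members (39 promoters). The motif TTCNNNGAA, which is the general form bound by STAT proteins and reads the same on both strands, was found in 0 of the 39, against 8.3% of 32851 promoters. The stricter form TTCCNGGAA, which is contained in the first, was found in 0 of the 39 and in 1.15% of all promoters.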

How the data were processed

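RNA-seq of total RNA from DR tissue gave 1 count table per animal, 12 in all. The authors deposited raw read counts per gene, and the submitters' processing notes list bcl2fastq, STAR 2.5.0b, DESeq2 1.6.3 and the build mm10. The counter, the annotation and the strand setting are not given in the sources used here. Lines for reads with no feature or ambiguous reads (13.9% to 15.8% per library) were left out. The study's methods give littermates of both sexes. All 12 libraries differed by more than sampling noise in each of 66 pairs (chi-square of 5.24 to 29.1 per gene over 13400 genes), and none was counted as a copy.

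Counts were analysed with edgeR 4.0.16 (TMM, quasi-likelihood test, R 4.3.3) after filterByExpr by genotype (at least 10 counts, total 15), with Benjamini-Hochberg adjustment over 15453 genes at a threshold of 0.05. Sex was tested beside genotype, and the interaction in a model with both. Single genes and 8 subunit ratios were tested two-sided with the exact permutation test over the 495 splits of 4 against 8 animals, whose smallest p is 0.00202. CPM used a prior count of 2 on the log2 scale only. Lengths came from GENCODE vM21. Alternatives were DESeq2 1.42.0, limma 3.58.1 voom with sample quality weights, another normalisation, filters, sex as covariate and leaving out each animal. Coding length and leaving out both KO 10 and KO 16 were chosen after seeing the data. On simulated data (genotype, 15377 genes) 89.9% of changed genes were recovered, 70% at a log2 change of 0.5, and 6.32% of calls were false. Counts were drawn for each gene alone, so shifts shared by many genes of a library were not simulated, and recovery in the data can be lower.

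The members and lists were chosen with earlier results of these data known. Values by group were given for the 10 members with the smallest unadjusted p, the most abundant member of each class, up to 4 whose sign changed when 1 library was left out, the 3 smallest p for sex and interaction, and the 6 smallest for accessory genes. A level of 3 counts, the limit that a count of 0 allows, was 0.101 to 0.123 CPM and covers counting error only. P-values measure the spread between animals. Figures were drawn with matplotlib 3.10.9 (Python 3.11.15, scipy 1.17.1).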

Additional observations from a re-analysis of the deposited data

Results flagged for a closer look

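Within each genotype, the highest and the lowest library of each of the 37 genes were compared with the nearest of the others, as the gap divided by the range of the group on the log2 CPM scale. The gap exceeded Dixon's critical value for the size of the group in 10 of 74 groups, where chance gives about 1 in 20, or 3.7. No share over all genes is given for this rule, so the excess cannot be read as particular to the members.

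Control 4 stood above the other controls in Dlgap1 (159 against 109 to 115 CPM, gap over range 0.847), Dlgap3 (117 against 90.4 to 92.1, 0.926) and Dlgap4 (146 against 124 to 127, 0.883). KO 8 stood below the other STAT3 KO mice in Grik5 (92.3 against 114 to 130, 0.602), Dlg4 (216 against 265 to 294, 0.657) and Dlgap4 (103 against 126 to 135, 0.744). KO 16 stood above them in Grin2c (51.3 against 29.0 to 34.1, 0.720). Control 13 was low in Gria4 (255 against 280 to 283, 0.902) and Dlg1 (152 against 156 in each other control, 0.918), and control 11 was high in Grik4 (36.9 against 34.2 to 34.6, 0.843). The causes were not tested.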

How the results depend on the processing

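No member passed at an adjusted p below 0.05 for genotype, sex or the interaction under any alternative run. The direction was kept in 448 of 464 comparisons of named members and ratios with an alternative. With 1 animal left out, the number of members with an unadjusted p below 0.05 in edgeR was 2 to 5 for genotype (2 without control 3, with 5% of all genes, and 3 without control 4 or control 11, with 8.96% and 7.65%), 2 to 4 for sex (4 without KO 7, with 6.24% of all genes) and 1 to 11 for the interaction (without control 4 and control 11, with 4.37% and 6.14%). For genotype the accessory genes gave 4 to 7 (5% to 10.8% of all genes), and ratios past the threshold numbered 0 to 1 (1, Homer1/Homer2, without control 11 at -0.30 or KO 16 at -0.27). For the interaction the accessory genes gave 10 to 12 with 1 STAT3 KO mouse left out (3.96% to 6.98% of all genes). Interaction fits without a control leave 1 control of its sex and are not counted here for the accessory genes. Without KO 10 and KO 16 there was 1 member for sex, with 5.35% of all genes.

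With 1 animal left out, 16 of the 37 members changed sign in at least 1 fit. Among the 18 members chosen by rule, these were Grik5 (-0.023 to 0.066, with -0.023 without control 3, -0.00038 without control 11 and -0.0034 without KO 5) and Grm7 (-0.046 to 0.050, with -0.046 without control 3, -0.0022 without KO 16 and -0.0086 without KO 7). Without control 4 they also included Shank1 (-0.097 to 0.021), Dlgap1 (-0.19 to 0.0073) and Dlgap3 (-0.13 to 0.0055). Ratios that turned were Gria4/Gria2 (-0.069 to 0.024, without control 3), Shank1/Shank3 (-0.0062 to 0.064, with -0.00035 without KO 14) and Dlg2/Dlg4 (-0.031 to 0.078, with -0.0051 without control 13). Shank1 was at 0.011 with limma-voom and quality weights, and Grm7 at -0.012 without KO 10 and KO 16. The causes were not tested.

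The smallest change simulated, 0.5 on the log2 scale, was recovered in 70% of genes, and smaller ones, such as most of those given here, were not simulated. Shifts shared by many genes of a library were not simulated either, so that recovery in the data can be lower. No paired analysis was run, since each number names a single animal and litters are not given in the sources used here.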
